A study of Mus musculus with 76 samples.

Results

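DIS3 is a ribonuclease of the RNA exosome, and total liver of mouse embryos labelled dis3 KO was compared with total liver of embryos labelled dis3 WT. Both genotypes were of strain C57BL/6NJ and were taken at embryonic day 14.5. The libraries were chosen by these labels, 4 of each genotype and 8 in all, out of 76 in the series. KO libraries 1 and 3 differed from each other by little more than sampling noise, and so did KO libraries 2 and 4. Each of these pairs was summed and counted as 1 sample, which left 4 WT and 2 KO samples. The labels do not give the allele, the cells in which the gene was deleted, any Cre or other agent, or whether replicates came from separate embryos. The p-values below therefore measure only the spread between these samples, which may in part be technical.

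For comparison, total liver of the EXOSC10 line (KO and WT, 8 libraries, 6 samples) and S3 cells of the DIS3 line (KO and WT, 6 libraries, 4 samples) were used, all of the same strain and age. S3 is a fraction of fetal liver cells sorted on CD71 and Ter119, surface proteins of maturing red cells. Each of these comparisons has WT samples of its own.

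The RNA exosome is a barrel of core subunits that carries ribonucleases: DIS3, which cuts and trims at the base, and EXOSC10, which trims at the cap end in the nucleus. It removes short transcripts made upstream of promoters, degrades faulty RNA and trims the precursors of ribosomal, small nuclear and small nucleolar RNAs. At this age the liver is the main site of red cell formation. Erythroblasts mature there around macrophages and between fetal hepatocytes, beside smaller numbers of other blood cell precursors, endothelial cells and stellate cells.

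The 8 libraries held 4662194 to 30412636 counts, and the shallowest was WT 4. Within WT, the chi-square statistic per degree of freedom between libraries was 4.86 to 23.7, against 1.48 for KO 1 with 3, 1.38 for KO 2 with 4 and 21.4 to 24.8 for the other KO pairs. WT 1, 2 and 4 carried Y-linked counts and WT 3 did not, and neither did either KO sample, as Ddx3y at 42.6 to 50.3 CPM in the former and at or under 0.0791 CPM in the latter showed. Xist stood at 1268 CPM in WT 3, at 2211 and 1348 CPM in KO and at or under 1.32 CPM in the other WT samples. Sex and genotype are therefore partly confounded, and 1 WT sample shares the absence of Y-linked counts with the KO samples. The predicted genes Gm26917 and Gm42418 held 11.9% to 15.9% of the counts of a WT library and 5.26% to 7.1% of those of a KO library. Cdx2 and Sftpc, genes of gut and lung, had no count in any sample, and the heart gene Myh6 was at or under 0.0225 CPM.

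Dis3 itself (chromosome 14, minus strand, 99075206 to 99099770) was not called in total liver, with WT samples at 29.8 to 49.9 CPM and KO samples inside that range (log2 -0.25 ± 0.17, adjusted p = 0.245). With Y-linked counts as a covariate its value was log2 -0.65. Here and below, that fit in effect sets KO against WT 3 alone, the only WT sample without such counts. WT 3 had the highest Dis3 level of WT (49.9 CPM), so this value rests on 1 WT sample. A count over the whole gene does not show whether a part of it was removed. Of the 8 measured core subunits of the exosome, 2 fell, against 24.2% of all tested genes called lower. Exosc5 had WT values of 33.6, 35.5, 30.9 and 32.5 CPM and KO values of 19.2 and 22.4 CPM (log2 -0.67 ± 0.11, adjusted p = 0.000159). Exosc8 had WT values of 41.7, 40.5, 41 and 42.1 CPM and KO values of 30.8 and 35.8 CPM (log2 -0.31 ± 0.10, adjusted p = 0.0187), and this call was lost without KO sample 1+3, under total-count scaling and with the Y covariate. The KO samples were below all WT samples for both genes. Of 20 cofactors, which bring RNA to the exosome, 4 fell and 1 rose, but 3 fell and 3 rose under total-count scaling, and 1 fell and 1 rose with the Y covariate. Ncbp1, of the nuclear cap-binding complex, fell from a mean of 101 to 75.1 CPM (log2 -0.43 ± 0.10, adjusted p = 0.0024; not called with the Y covariate) and Ncbp3 from 49.6 to 34.7 CPM (log2 -0.51 ± 0.10). Ttc37, a subunit of the SKI complex that serves the cytoplasmic exosome, rose from a mean of 25.1 to 37.3 CPM (log2 0.56 ± 0.11). With all samples, 20% of the cofactors were lower and 5% higher, below the 24.2% and 26.5% over all tested genes. Among 15 other RNA decay enzymes 5 fell (33.3%, against 24.2% of all tested genes), and 3 without WT 1 or WT 2. Under total-count scaling 2 fell and 1 rose, and with the Y covariate 1 fell. One of the 5 was Eri1, a 3′ exonuclease that trims histone mRNA ends and ribosomal RNA (from 96 to 63.7 CPM, log2 -0.60 ± 0.09). Dis3l, the cytoplasmic relative of Dis3, fell by a small amount (log2 -0.28 ± 0.11, adjusted p = 0.044), and this call was lost in 9 of the 14 other settings.

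**Figure D1:**
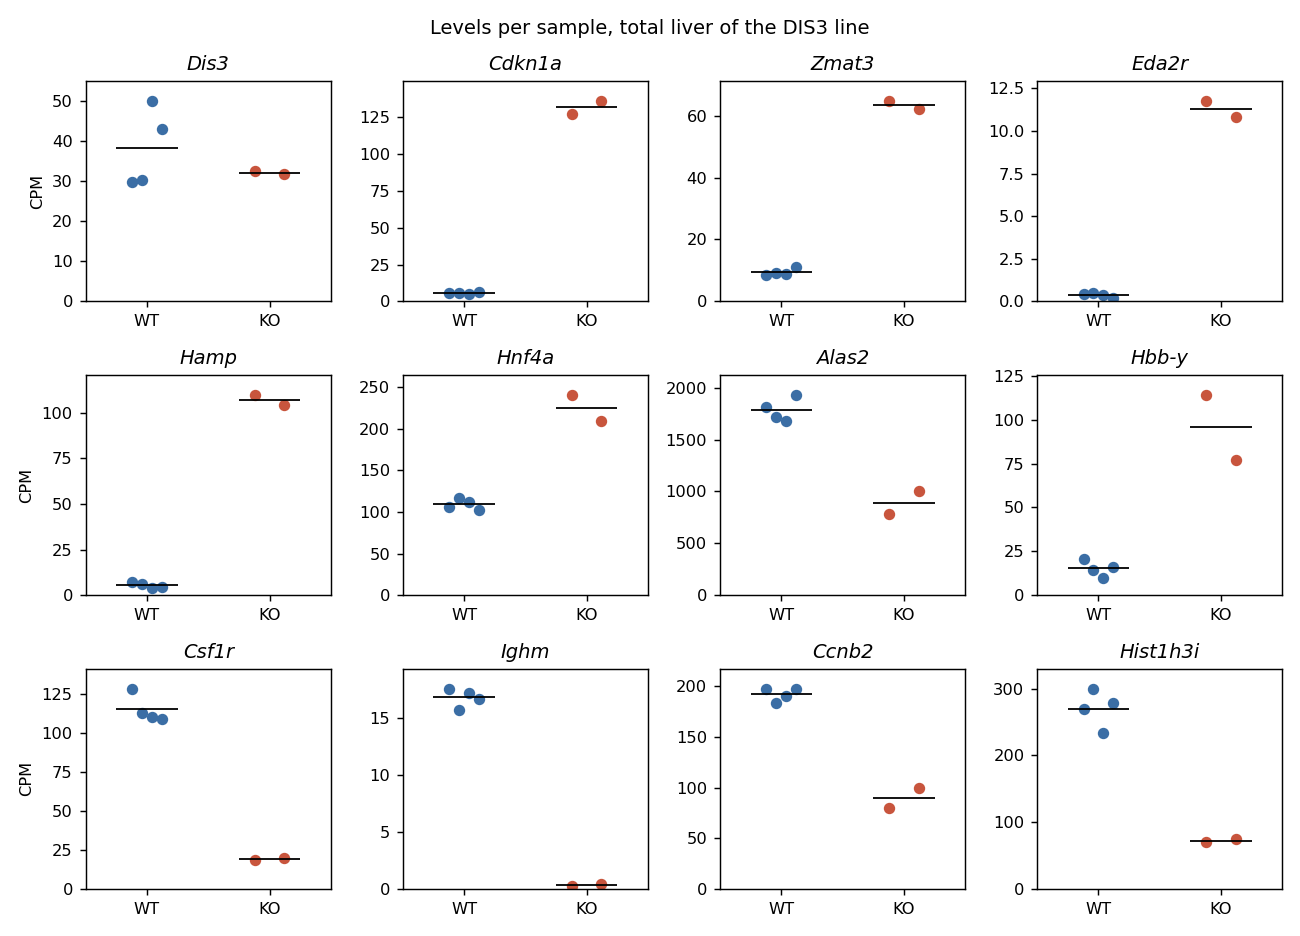
Level of 12 genes in each sample of total liver of the DIS3 line, as CPM on a linear axis that starts at 0. Points are samples (4 WT, 2 KO) and horizontal lines are group means. Only for Dis3 do the KO samples lie inside the WT range.

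Across the liver transcriptome, 4659 of 17553 tested genes were called higher in KO (26.5%) and 4240 lower (24.2%), by edgeR's quasi-likelihood test at an adjusted p under 0.05. Changes of at least 2-fold were called for 1850 genes higher (10.5%) and 1106 lower (6.3%), and KO and WT samples did not overlap for 59.4% of tested genes. A list of genes is therefore read against these shares. Of all calls 52.4% were higher, and 62.6% under total-count scaling, which moved the median log2 value of all tested genes from 0.03 to 0.13. In bulk tissue, fewer cells of a type and less RNA per cell cannot be told apart. CPM are shares of a library, so a rise of one cell type's RNA and a loss of another's cannot be told apart either.

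Genes that p53 is known to activate were among the strongest rises. Cdkn1a, the cell cycle inhibitor p21, had WT values of 5.92, 5.66, 4.7 and 6.14 CPM and KO values of 128 and 136 CPM (log2 4.58 ± 0.11, adjusted p = 1.3e-12). Zmat3, an RNA-binding protein and p53 target, had WT values of 8.46, 9.28, 8.74 and 11 CPM and KO values of 64.7 and 62.2 CPM (log2 2.81 ± 0.11, adjusted p = 3.94e-10), and Ccng1, cyclin G1, had WT values of 53.2, 49.6, 55.7 and 48.9 CPM and KO values of 205 and 171 CPM (log2 1.85 ± 0.10, adjusted p = 8.14e-09). In all of these the KO samples were far above every WT sample. Zfp365 did not exceed 0.119 CPM in any WT sample and had KO values of 6.28 and 4.94 CPM (log2 6.22 ± 0.36). Of 17 measured targets that act in arrest and feedback, 11 rose, 3 fell and 3 were not called (median log2 0.64). The feedback ligase gene Mdm2 had WT values of 47.1, 42.2, 47.8 and 56 CPM and KO values of 79.3 and 69.4 CPM (log2 0.64 ± 0.11, adjusted p = 0.000177). Trp53inp1 rose from a mean of 15.9 to 60.9 CPM and Plk2 from 8.55 to 26.2 CPM. The members that fell were Btg2 (WT values of 241, 226, 221 and 296 CPM and KO values of 113 and 122 CPM; log2 -1.07 ± 0.12), the stress sensor Sesn1 (log2 -0.67 ± 0.10) and the phosphatase gene Ppm1d (log2 -0.97 ± 0.10).

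Of 14 targets that act in cell death, 8 rose and 3 fell. Eda2r, a death receptor of the TNF receptor family, had WT values of 0.453, 0.492, 0.395 and 0.22 CPM and KO values of 11.8 and 10.8 CPM (log2 4.73 ± 0.21, adjusted p = 8.76e-10). The death receptor genes Tnfrsf10b (WT values of 1.81, 0.739, 1.66 and 1.54 CPM and KO values of 6.68 and 6.6 CPM; log2 2.13 ± 0.22) and Fas (WT values of 2.09, 2.46, 2.1 and 2.41 CPM and KO values of 6.62 and 6.35 CPM; log2 1.55 ± 0.17) rose too, without overlap. Perp, a membrane protein gene, rose from a mean of 16.7 to 33.9 CPM and Ak1, adenylate kinase, from 1.2 to 10.4 CPM. Bbc3, which encodes the BH3-only killer PUMA, went the other way, with WT values of 18.6, 17.3, 14.7 and 17.6 CPM and KO values of 10.6 and 13.4 CPM (log2 -0.50 ± 0.14, adjusted p = 0.00923). Bbc3 was not called without KO 1+3 (log2 -0.35) or with the Y covariate, and without KO 1+3 the list's count of falls went from 3 to 1. Of 14 targets in repair and metabolism, 8 rose and 1 fell, and 5 rose without KO 1+3 or with the Y covariate. Phlda3, an inhibitor of AKT, had WT values of 2.4, 2.3, 1.74 and 2.19 CPM and KO values of 13.5 and 14.3 CPM (log2 2.70 ± 0.16, adjusted p = 3.21e-08). Ercc5, a nuclease of nucleotide excision repair, rose from a mean of 13.6 to 27.2 CPM, Pank1, which makes coenzyme A, from 18.4 to 37.6 CPM, and Fdxr, ferredoxin reductase, from 22.9 to 36.9 CPM. Sertad3 was the member that fell (log2 -0.88 ± 0.14). The p53-induced long RNA Trp53cor1 next to Cdkn1a did not exceed 0.209 CPM in any WT sample and had KO values of 1.52 and 1.59 CPM (log2 3.59 ± 0.43).

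Trp53 mRNA was not called, with WT values of 96.5, 96.8, 85.5 and 83.8 CPM and KO values of 76.7 and 81.3 CPM (log2 -0.20 ± 0.10, adjusted p = 0.0929); it was called lower when no libraries were summed (log2 -0.21). Among 10 genes of p53 and its regulators, 3 rose and 5 fell, and none rose without KO 1+3 or with the Y covariate. The checkpoint kinases Chek2 (from 56 to 27.6 CPM, log2 -1.01 ± 0.10) and Chek1 (from 41.5 to 27.1 CPM, log2 -0.63 ± 0.11) fell. Mdm4, the partner of Mdm2, rose by a small amount (log2 0.42 ± 0.11), a call lost without KO 1+3 (log2 0.23).

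Outside the lists, the largest rises among coding genes over 5 CPM in a group, with no overlap of genotypes, included Tmtc1, an O-mannosyltransferase of the endoplasmic reticulum, with WT values of 1.43, 1.48, 0.87 and 1.32 CPM and KO values of 25 and 22.8 CPM (log2 4.27 ± 0.18, adjusted p = 7.03e-10). C2cd4a had WT values of 1.25, 2.05, 1.9 and 0.878 CPM and KO values of 27.9 and 29.9 CPM (log2 4.17 ± 0.18). The monocyte chemokine gene Ccl2 rose from a mean of 0.238 to 5.45 CPM, the ubiquitin ligase gene Hecw1 from 0.307 to 5.84 CPM and Rundc3a from 0.493 to 5.28 CPM. The KO samples were above all WT samples for each of these. B430305J03Rik rose from a mean of 0.678 to 5.49 CPM (log2 3.23 ± 0.27). The largest falls by the same rule included Gm16867, which had 497 counts in WT (mean 6.44 CPM) and no count in KO, at least 197-fold lower against a floor of 3 counts over the KO group. It was also at 0 CPM in EXOSC10 WT and at a mean of 0.491 CPM in EXOSC10 KO, so its absence was not confined to DIS3 KO. Gm16867 lies on chromosome 14, as Dis3 does, and the cause of its absence was not tested. Napsa, an aspartic protease gene, fell from a mean of 7.29 to 0.35 CPM, the mucin gene Muc6 from 21.5 to 2.65 CPM, Prss50 from 12.5 to 1.32 CPM and Tac2, which encodes neurokinin B, from 11.1 to 1.54 CPM. BC035044 fell from a mean of 10.7 to 1.32 CPM, Ms4a6c from 12.7 to 1.64 CPM and the transcriptional corepressor gene Runx1t1 from 64.7 to 12.4 CPM (log2 -2.39 ± 0.11, adjusted p = 2.29e-09).

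Most genes of red cell transcription factors, surface, membrane and heme synthesis fell. Slc4a1, band 3 of the red cell membrane, had WT values of 9657, 9543, 8173 and 9781 CPM and KO values of 3774 and 5040 CPM (log2 -1.08 ± 0.15, adjusted p = 3.42e-05). Alas2, which starts heme synthesis in red cells, had WT values of 1816, 1721, 1681 and 1931 CPM and KO values of 778 and 1006 CPM (log2 -1.0 ± 0.14, adjusted p = 2.17e-05). Both KO samples were well below the WT samples for both genes, and KO 1+3 was the lower of them. Of 18 erythroid transcription factors, 17 fell, with a median of log2 -0.88. Their summed level was 5090 to 5678 CPM over the WT samples, the KO samples had 2647 and 3066 CPM, and the WT sample without Y-linked counts was the lowest of WT. E2f2, which drives the last divisions of erythroblasts, fell from a mean of 787 to 324 CPM (log2 -1.28 ± 0.14), Zbtb7a, a repressor of fetal globin in humans, from 302 to 138 CPM, Gfi1b from 127 to 57.2 CPM, Lmo2 from 272 to 129.5 CPM and the progenitor factor gene Myb from 75.7 to 36.9 CPM. Nfia was the member that rose (from 15.8 to 24.7 CPM, log2 0.64 ± 0.13, adjusted p = 0.000771).

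All 15 measured erythroid receptors and surface proteins fell (median log2 -1.05), and so did all 16 genes of the membrane skeleton and transport (median -0.93). The summed levels of these lists did not overlap between genotypes. The water channel gene Aqp1 changed most, with WT values of 315, 367, 295 and 342 CPM and KO values of 58.2 and 65.8 CPM (log2 -2.41 ± 0.13, adjusted p = 6.9e-09). Kit, the receptor of stem cell factor, had WT values of 92.9, 85.4, 78 and 68.9 CPM and KO values of 26.7 and 28.6 CPM (log2 -1.57 ± 0.12, adjusted p = 2.33e-07), and the integrin gene Itga4, which holds erythroblasts to macrophages, fell from 471 to 228 CPM. The urea transporter gene Slc14a1 fell from a mean of 154 to 67.2 CPM and Epb42, protein 4.2, from 650 to 295 CPM (log2 -1.14 ± 0.12).

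Of 16 genes of heme synthesis and transport, 14 fell and none rose (median log2 -0.85). Uros, the uroporphyrinogen III synthase, fell from a mean of 219.9 to 99.3 CPM (log2 -1.14 ± 0.12). Of 15 genes of iron handling, 9 fell and 3 rose, and 5 fell without KO 1+3. The transferrin receptor gene Tfrc had WT values of 2112, 2009, 1995 and 2561 CPM and KO values of 1073 and 1156 CPM (log2 -0.96 ± 0.14, adjusted p = 3.54e-05), and Glrx5, of iron-sulfur cluster assembly, fell from 302 to 154 CPM. Ftl1, the ferritin light chain, rose from a mean of 504 to 814 CPM (log2 0.69 ± 0.11). Of 19 genes of organelle clearance and enucleation, 15 fell and 2 rose. Trim58, a ubiquitin ligase of late erythroblasts, fell from a mean of 54.2 to 22.7 CPM, Fbxo7 from 109 to 53.6 CPM and the formin gene Diaph3 from 154 to 89.7 CPM.

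The stretch of 250 bases before the start of 2 of the genes that fell is shown because each holds the motif AGATAA, the form bound by GATA factors. The motif was searched on both strands, its reverse complement is TTATCT, and capitals mark the matches. Sequences are from RefSeq, build GRCm38.p6, written 5′ to 3′ on the strand of the gene. Alas2 is on the plus strand (chrX:150547167-150547416) and Epb42 on the minus strand (chr2:121036878-121037127).
Alas2: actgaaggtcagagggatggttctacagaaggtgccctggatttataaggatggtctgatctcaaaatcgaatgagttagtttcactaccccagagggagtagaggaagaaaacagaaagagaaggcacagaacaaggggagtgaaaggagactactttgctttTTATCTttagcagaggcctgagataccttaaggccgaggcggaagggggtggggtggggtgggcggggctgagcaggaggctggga
Epb42: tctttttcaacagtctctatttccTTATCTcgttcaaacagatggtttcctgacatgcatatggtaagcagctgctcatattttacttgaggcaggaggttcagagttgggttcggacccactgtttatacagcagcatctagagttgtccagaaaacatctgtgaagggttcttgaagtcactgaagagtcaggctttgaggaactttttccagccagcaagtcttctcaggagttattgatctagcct
The motif was present in 10.3% of all 27025 promoters of the table. It was present in 5 of 13 promoters of the receptor and surface protein list (38.5%), 2 of 16 of the transcription factors (12.5%), 1 of 9 of the membrane skeleton (11.1%) and 1 of 12 of heme synthesis (8.33%). A match describes the letters of this window and is not a binding site.

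Globin genes split by stage. Adult Hbb-bs had WT values of 1693, 1449, 1164 and 1199 CPM and KO values of 417 and 760.2 CPM (log2 -1.23 ± 0.21, adjusted p = 0.000193), and adult Hba-a1 fell from 17.4 to 7.76 CPM (log2 -1.14 ± 0.22). The embryonic genes rose: Hbb-y had WT values of 20.9, 14, 9.92 and 16 CPM and KO values of 114 and 77.2 CPM (log2 2.65 ± 0.20, adjusted p = 2.33e-07), Hba-x had WT values of 5.71, 4.68, 2.29 and 5.93 CPM and KO values of 35 and 23.4 CPM (log2 2.73 ± 0.25) and Hbb-bh1 had WT values of 1.81, 2.46, 1.19 and 1.54 CPM and KO values of 6.68 and 6.4 CPM (log2 1.93 ± 0.22). The KO samples were above all WT samples for each embryonic gene. Hbb-bt was not called (log2 -0.45 ± 0.23, adjusted p = 0.109), with KO 2+4 inside the WT range, and was called lower without that sample (log2 -1.0), without WT 3 (log2 -0.57), with no low-count filter and with the replicate block. Near-identical globin copies share reads, so the split between Hba-a1 and Hba-a2, and between Hbb-bs and Hbb-bt, is uncertain. The depletion kit named in the labels is designed to remove globin mRNA as well, so these levels are not those of the cells.

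Erythropoietin drives erythroblast survival through STAT5, whose targets are read here beside it. Of 10 genes of erythropoietin and its feedback, 6 rose and 1 fell, and 3 rose with the Y covariate. Erfe, the hormone by which erythroblasts lower hepcidin, had WT values of 4.39, 8.13, 3.6 and 10.8 CPM and KO values of 22.8 and 25.1 CPM (log2 2.04 ± 0.26, adjusted p = 1.19e-05). The STAT5 target Cish had WT values of 16.1, 16.7, 12.5 and 16.5 CPM and KO values of 48 and 42.5 CPM (log2 1.57 ± 0.12, adjusted p = 2.89e-07), and Kitl, stem cell factor, rose from 38.3 to 85.6 CPM. Epo itself did not exceed 0.277 CPM in any WT sample and had KO values of 0.717 and 0.831 CPM (log2 1.59 ± 0.38, adjusted p = 0.00258), a call lost with DESeq2 and with the Y covariate. The survival gene Bcl2l1 was the member that fell (from 482 to 241 CPM, log2 -0.99 ± 0.14).

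Hepcidin, the hormone that limits iron uptake, rose strongly. Hamp had WT values of 7, 6.07, 4.07 and 4.61 CPM and KO values of 109.8 and 104 CPM (log2 4.26 ± 0.15, adjusted p = 1.43e-10), and its copy Hamp2 had WT values of 0.87, 2.87, 0.632 and 1.32 CPM and KO values of 10.6 and 34.2 CPM (log2 4.19 ± 0.45). In the EXOSC10 line, Hamp went from a mean of 3.375 CPM in WT to 48.3 CPM in KO. Hamp2 was near absent from that line, at 0 CPM in WT and 0.0141 CPM in KO. By the interaction test, the KO effect on Hamp was not called different between the lines (difference of log2 0.32 ± 0.31, adjusted p = 0.718). For Hamp2 the difference was log2 2.13 ± 11.71, so the test could not decide, with that gene near absent from the EXOSC10 line. Of 17 genes of hepcidin control, 12 rose and none fell (median log2 0.86). Bmp6, the signal that induces hepcidin, had WT values of 1.25, 1.48, 1.07 and 2.19 CPM and KO values of 8.62 and 6.13 CPM (log2 2.48 ± 0.23, adjusted p = 7.54e-07). Its receptor genes Bmpr1a (from 38.2 to 78.9 CPM) and Acvr1 (from 22 to 42.7 CPM) rose, and so did Tmprss6, a protease that limits hepcidin (from 95 to 199 CPM).

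Hepatocyte genes rose together. Alb had WT values of 20836, 20361, 23387 and 22077 CPM and KO values of 46703 and 45251 CPM (log2 1.09 ± 0.13, adjusted p = 6.78e-06), and Afp, its fetal relative, had WT values of 20996, 21037, 24347 and 24143 CPM and KO values of 50063 and 47415 CPM (log2 1.11 ± 0.13). Of 15 hepatocyte transcription factors, 14 rose (median log2 1.11), among them Hnf4a, with WT values of 106, 117, 112 and 103 CPM and KO values of 241 and 209.5 CPM, and Nr5a2, which rose from 21.1 to 50.3 CPM. All 22 secreted plasma proteins (median 1.1), all 23 coagulation and complement factors (median 1.28) and all 19 measured metabolic genes (median 1.23) rose. The plasma proteins summed to 60953 to 68620 CPM in WT and to 141184 and 135416 CPM in KO. Transferrin, Trf, rose from a mean of 804 to 1769 CPM, Ambp from 879.9 to 2002 CPM, coagulation factor XI, F11, from 45.2 to 112 CPM and complement C8b from 83.2 to 209.5 CPM. The bile salt exporter gene Abcb11 rose from a mean of 53.1 to 167 CPM (log2 1.65 ± 0.11) and Otc, of the urea cycle, from 29.2 to 73.7 CPM.

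Of 10 acute phase genes, 6 rose and 1 fell. Saa3 rose from a mean of 1.52 to 7 CPM, Crp, C-reactive protein, from 45.2 to 109.9 CPM and Lbp from 100.1 to 228 CPM, and the interleukin 6 receptor gene Il6ra fell from 35.6 to 22 CPM. Of 16 genes of cholesterol synthesis and uptake, 15 rose and none fell (median log2 1.05). The sterol enzyme gene Sc5d had WT values of 112, 109.8, 140.3 and 113 CPM and KO values of 329.9 and 286 CPM (log2 1.37 ± 0.11, adjusted p = 3.34e-07), and Dhcr7 rose from 159.8 to 321 CPM. The KO samples stood above every WT sample for Sc5d, and WT 3 was the highest of WT.

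Most measured markers of endothelial, stellate and mesothelial cells also rose. Of 14 endothelial markers 12 rose (median log2 0.48), and 7 with the Y covariate. Kdr, the VEGF receptor, rose from a mean of 69 to 104 CPM (log2 0.60 ± 0.10), Flt1 from 22.3 to 40.8 CPM, Stab1, of sinusoids, from 155 to 239 CPM and Clec4g from 5.22 to 10.1 CPM. Pecam1 rose from 31.5 to 39.3 CPM, a call lost without KO 1+3. Of 16 stellate and mesenchymal markers 12 rose (median 0.74), among them Reln (from 556 to 1017 CPM), the matrix gene Dcn (from 37.2 to 67.2 CPM) and the chemokine gene Cxcl12 (from 111 to 187 CPM). Of 8 mesothelial markers 5 rose, among them Podxl (from 67.7 to 164 CPM). In sorted S3 cells Podxl went from 61 CPM in WT to 117 CPM in KO and Reln from 75.9 to 492 CPM. The rises of Podxl and Reln in total liver can therefore not be assigned to mesothelial or stellate cells. Dcn and Cxcl12 did not exceed a mean of 0.3963 CPM in S3. Of 6 measured bile duct markers 2 rose and 1 fell, and 1 rose without WT 1, with DESeq2 or with the Y covariate: Cdh1, E-cadherin, which hepatocytes also make, rose from 107 to 230.4 CPM, and Sox4 fell from 20.3 to 10.3 CPM.

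**Figure D2:**
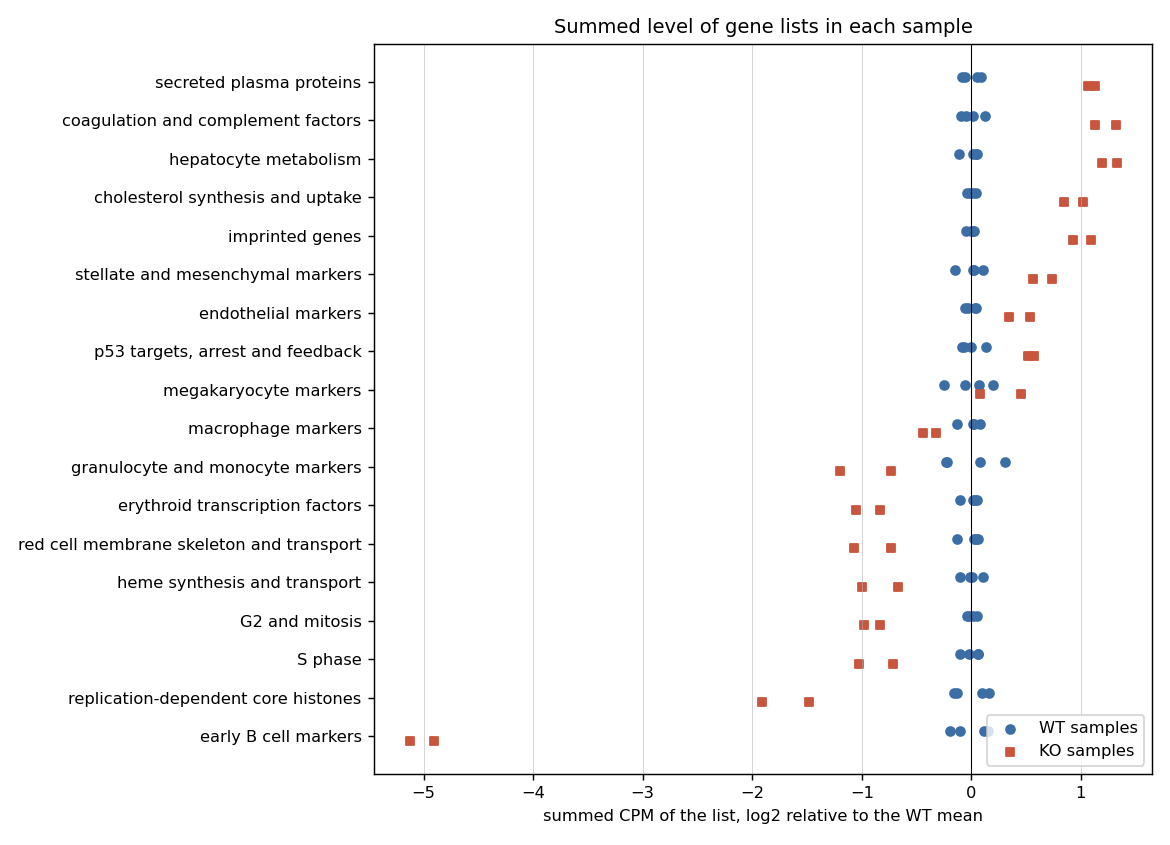
Summed CPM of 18 gene lists in each sample, as log2 relative to the WT mean of that list. Circles are WT samples and squares are KO samples. The megakaryocyte list is the one in which the genotypes overlap, and early B cell markers lie lowest in KO.

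Other blood lineages did not move as one. All 14 measured early B cell markers fell (median log2 -5.06, also with members at 0 set to their bound). Ighm, the heavy chain of IgM, had WT values of 17.6, 15.7, 17.2 and 16.7 CPM and KO values of 0.274 and 0.404 CPM (log2 -5.62 ± 0.21, adjusted p = 2.18e-10). Pax5, the B cell identity factor, had 495 counts in WT and 1 in KO, 663-fold lower (95% counting interval 119 to 26200). Rag1, of the recombinase, had 671 counts in WT and 2 in KO, 444-fold lower (123 to 3670). Cd79b fell from a mean of 6.3 to 0.63 CPM. Counting intervals cover counting error only. The list summed to 53.6 to 67.8 CPM in WT and to 1.75 and 2.04 CPM in KO.

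Of 20 macrophage markers, 15 fell and 3 rose (median log2 -1.30). Csf1r, the receptor that macrophages need, had WT values of 128, 112, 110.2 and 109 CPM and KO values of 18.6 and 19.9 CPM (log2 -2.58 ± 0.11, adjusted p = 7.95e-10). Adgre1, which encodes F4/80, had WT values of 65, 46.2, 55.9 and 50.7 CPM and KO values of 13.5 and 14.8 CPM (log2 -1.96 ± 0.14, adjusted p = 1.08e-07). Clec4f, of Kupffer cells, fell from a mean of 11.6 to 1.34 CPM, Cd5l from 119 to 43.2 CPM and the complement gene C1qc from 61.4 to 21.6 CPM. Mertk, which takes part in uptake of expelled nuclei, was among the members that rose (from 32.5 to 50.5 CPM, log2 0.62 ± 0.11).

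Of 15 granulocyte and monocyte markers, 10 fell, 1 rose and 4 were not called. Mpo, of early granule precursors, had WT values of 742, 509.6, 484 and 562 CPM and KO values of 76.8 and 146 CPM (log2 -2.37 ± 0.23, adjusted p = 1.3e-06), with KO 1+3 the lower KO sample. The primary granule genes Elane and Prtn3 fell from a mean of 65.1 to 14.3 CPM and from 113 to 27.8 CPM, and the monocyte receptor gene Ccr2 from 25.1 to 1.39 CPM (log2 -4.17 ± 0.26). Genes of late granules were not called lower: Ltf, lactoferrin, had WT values of 68.1, 52.4, 56.1 and 71.3 CPM and KO values of 85.3 and 90.7 CPM (log2 0.52 ± 0.12, adjusted p = 0.00176), and Ngp, Camp, S100a8 and S100a9 were not called, with KO means of 132, 31.9, 137 and 94.7 CPM against 107, 36.8, 123 and 76.3 CPM in WT.

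Of 14 megakaryocyte markers, 2 rose and 3 fell, and none fell without KO 2+4, 1 fell without WT 1 and 1 rose without KO 1+3. Rises outnumbered falls with DESeq2 (2 and 1), under total-count scaling (3 and 1) and with the Y covariate (1 and 0). In the fit of all samples 14.3% of this list were higher and 21.4% lower. Both shares were below those over all tested genes (26.5% and 24.2%). The platelet chemokine gene Pf4 rose from a mean of 88.6 to 119 CPM (log2 0.42 ± 0.09). The platelet receptor subunits Gp9 (log2 -0.31 ± 0.12) and Gp1bb (log2 -0.51 ± 0.15) fell, and both calls were lost without KO 2+4. Of 6 measured mast cell and basophil markers 2 fell (33.3%, against 24.2% of all tested genes). They were Cpa3, from 3.85 to 1.63 CPM, and the histamine enzyme gene Hdc, from 15 to 7.4 CPM. Of 16 stem and progenitor markers, 5 rose and 5 fell, and 3 rose without KO 1+3. With all samples, 31.2% of the progenitor list were higher and 31.2% lower, against 26.5% and 24.2% of all tested genes. Hlf, a stem cell factor that hepatocytes also make, rose from a mean of 16.9 to 36.9 CPM, and Mecom from 4.27 to 10.3 CPM. Kit, a member of this list too, fell as given above.

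**Figure D3:**
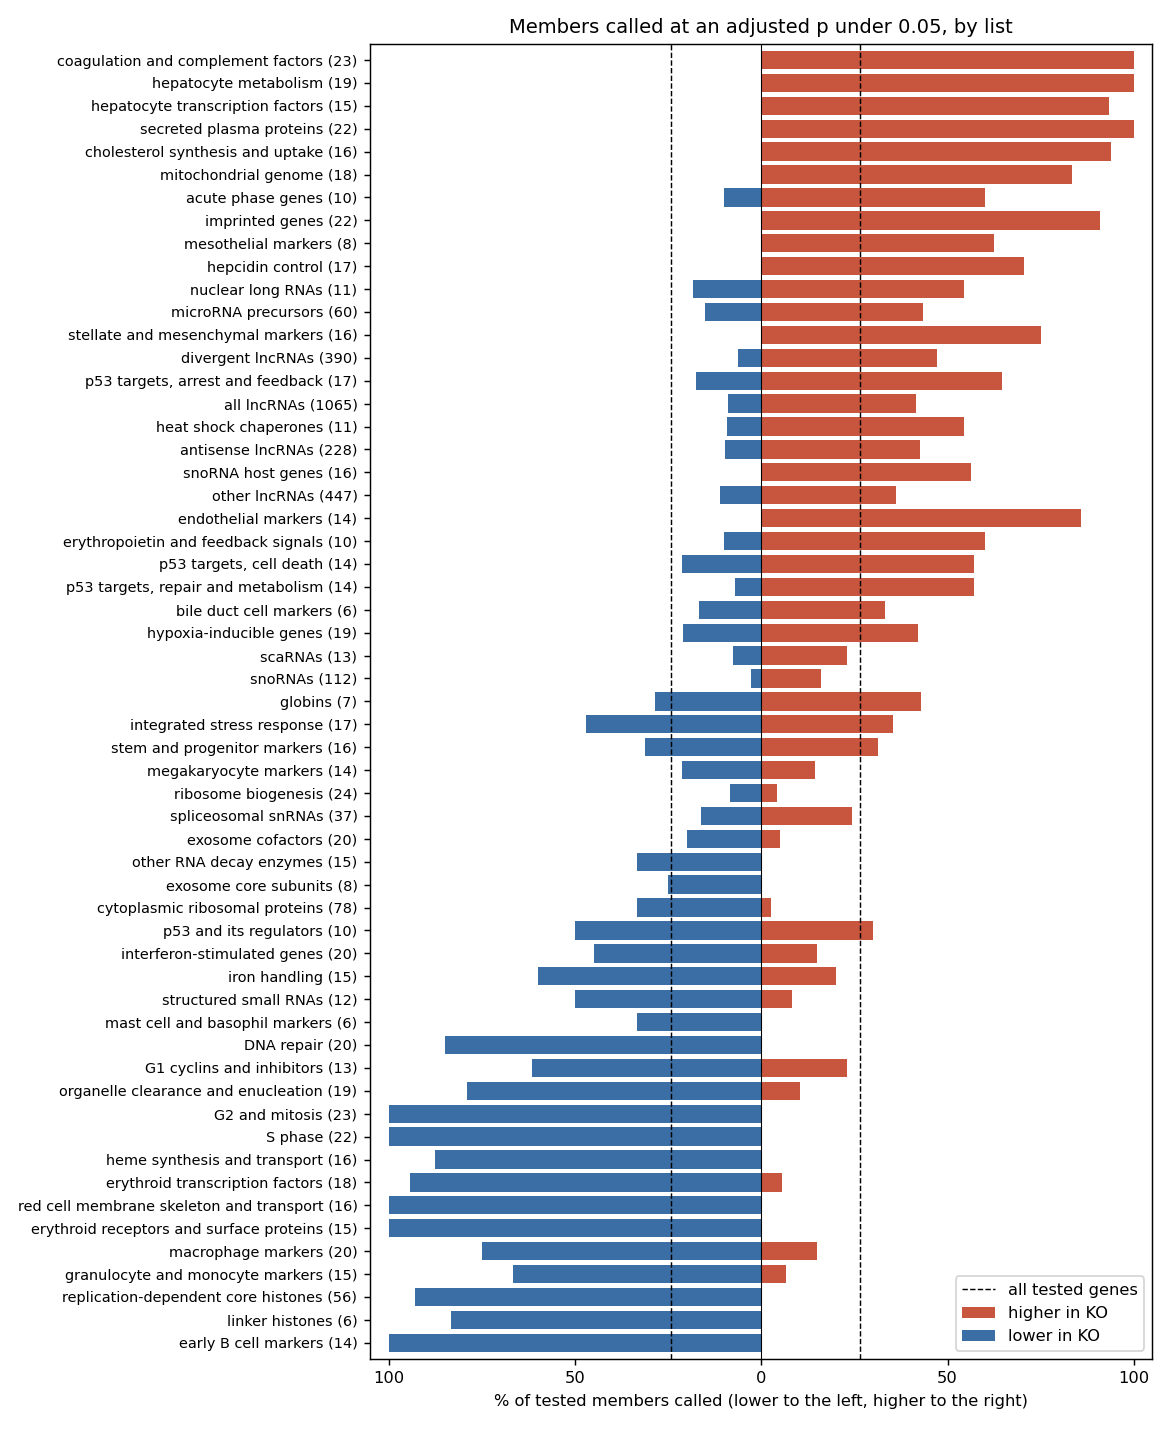
Share of the tested members of each list that were called higher (right) or lower (left) in KO, with the number tested in brackets. Dashed lines mark the shares over all tested genes, 26.5% higher and 24.2% lower. The lists of hepatocyte transcription factors, plasma proteins, coagulation and complement, and hepatocyte metabolism reach 93.3% to 100.0% higher, and those of S phase, mitosis, erythroid surface proteins and the red cell membrane 100.0% lower.

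Genes of S phase and mitosis fell as a block. All 22 S phase genes (median log2 -0.84) and all 23 genes of G2 and mitosis (median -0.80) fell. Pcna, the clamp of DNA polymerase, had WT values of 455, 436, 446 and 448 CPM and KO values of 189.8 and 244 CPM (log2 -1.04 ± 0.12, adjusted p = 4.97e-06), and Ccnb2, a cyclin of mitosis, had WT values of 198, 183, 191 and 197 CPM and KO values of 79.5 and 99.4 CPM (log2 -1.1 ± 0.11, adjusted p = 1.35e-06). The S phase transcription factor genes E2f1 and E2f8 fell from a mean of 85.5 to 36.3 CPM and from 206 to 94 CPM, and Cdc6, of origin licensing, from 154 to 71.2 CPM. Cdc25b, the phosphatase that opens mitosis, fell from a mean of 723 to 272 CPM, Cdk1 from 189 to 109 CPM and the spindle motor gene Kif11 from 305 to 159.5 CPM. Of 13 measured G1 genes, 8 fell and 3 rose. Ccnd2, cyclin D2, had WT values of 72.3, 88.3, 79.8 and 71.5 CPM and KO values of 224 and 180.4 CPM (log2 1.37 ± 0.11, adjusted p = 2.89e-07), whereas Ccnd3, the cyclin D of erythroblasts, fell from 512 to 287 CPM. The inhibitors Cdkn2c and Cdkn2d fell from a mean of 56 to 23.3 CPM and from 102 to 35.4 CPM. Of 20 DNA repair genes 17 fell, among them Brca2 (from 109 to 57.5 CPM), Fanca (from 60.4 to 29.4 CPM) and H2afx (from 949 to 320.5 CPM).

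Histone mRNAs made in S phase fell with a lower median than either list. Of 56 measured replication-dependent core histones 52 fell and none rose, with a median of log2 -1.63. Their sum was 16277 to 20386 CPM over the WT samples, and the KO samples had 4837 and 6505 CPM. Hist1h3i had WT values of 269, 299.8, 233 and 278 CPM and KO values of 69.7 and 74.9 CPM (log2 -1.90 ± 0.12, adjusted p = 5.07e-08), and the linker histone gene Hist1h1c had WT values of 1607, 1632, 1083 and 1347 CPM and KO values of 371 and 325 CPM (log2 -2.03 ± 0.17). Slbp, which binds the histone mRNA stem-loop, fell from a mean of 182 to 94.5 CPM (log2 -0.94 ± 0.10). Histone genes resemble each other, so reads may be shared between copies.

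The promoter stretches of 3 genes of G2 and mitosis are shown because they carry the motifs usual for such genes: CCAAT (reverse complement ATTGG) and TTTGAA (reverse complement TTCAAA), the core of the cell cycle gene homology region. Both strands were searched over 250 bases before the start, the motifs do not overlap each other, and capitals mark matches. Ccnb2 (chr9:70421555-70421804) and Cdk1 (chr10:69352913-69353162) lie on the minus strand and Kif11 (chr19:37376132-37376381) on the plus strand, from RefSeq on GRCm38.p6.
Ccnb2: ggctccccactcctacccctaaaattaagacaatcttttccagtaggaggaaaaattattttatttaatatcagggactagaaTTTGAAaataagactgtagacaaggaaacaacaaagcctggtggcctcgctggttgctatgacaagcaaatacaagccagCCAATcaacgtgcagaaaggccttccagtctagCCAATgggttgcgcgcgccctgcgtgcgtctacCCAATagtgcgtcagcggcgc
Cdk1: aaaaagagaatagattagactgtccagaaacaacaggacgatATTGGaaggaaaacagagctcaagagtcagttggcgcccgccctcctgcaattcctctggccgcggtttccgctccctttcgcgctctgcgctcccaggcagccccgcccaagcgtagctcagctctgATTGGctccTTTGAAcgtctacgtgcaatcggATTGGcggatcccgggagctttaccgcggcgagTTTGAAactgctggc
Kif11: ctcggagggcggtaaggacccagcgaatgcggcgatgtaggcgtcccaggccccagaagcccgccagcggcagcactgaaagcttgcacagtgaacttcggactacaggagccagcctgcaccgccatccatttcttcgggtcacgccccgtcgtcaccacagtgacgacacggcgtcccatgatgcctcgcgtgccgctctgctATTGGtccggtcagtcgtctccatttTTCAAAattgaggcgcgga
CCAAT was present in 15 of 18 promoters of the G2 and mitosis list (83.3%) and 13 of 18 of the S phase list (72.2%), against 34.5% of all 27025 promoters. TTTGAA was present in 6 of 18 (33.3%) and 3 of 18 (16.7%), against 16.3% of all. These are counts of letters and do not show that a factor was bound.

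Stress genes were mixed. Of 17 genes of the integrated stress response, 6 rose and 8 fell, and the counts were even without KO 1+3 (5 and 5), without WT 1 or under total-count scaling (6 and 6). Ppp1r15a, which restores translation, had WT values of 276, 249, 238 and 265 CPM and KO values of 88.8 and 122 CPM (log2 -1.29 ± 0.13, adjusted p = 1.52e-06), and the factor gene Atf4 and its targets Asns and Chac1 fell from a mean of 258 to 161 CPM, from 360.2 to 225 CPM and from 2.59 to 0.565 CPM. Vldlr rose from a mean of 11 to 32.4 CPM. Of 20 interferon-stimulated genes, 9 fell and 3 rose, and 5 fell without WT 1 or with the Y covariate. Rsad2, viperin, had WT values of 90, 63, 55.5 and 143 CPM and KO values of 21.1 and 23.8 CPM (log2 -1.93 ± 0.27, adjusted p = 3.51e-05), and the chemokine gene Cxcl10 rose from 2.39 to 8.27 CPM. Of 19 hypoxia-inducible genes 8 rose and 4 fell, and 2 fell without KO 1+3. Vegfa rose from a mean of 37.3 to 74 CPM and Ndrg1 from 70.4 to 136 CPM, and the kinase gene Pdk1 fell from 114 to 85 CPM, a call lost with the Y covariate. Of 11 heat shock chaperones 6 rose and 1 fell. The endoplasmic reticulum chaperone gene Hspa5 rose from a mean of 792 to 1256 CPM and Hspd1, of mitochondria, from 286 to 440.2 CPM, and Dnajb1 fell from 96 to 48.6 CPM.

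Long non-coding RNAs were called higher more often than lower. Of 1065 tested lncRNAs, 443 rose (41.6%) and 95 fell (8.92%), with a median of log2 0.61, against a median of 0.03 over all tested genes. The filter on low counts keeps a rare RNA that is high in KO and drops one that is low in both, so these counts describe the tested lncRNAs alone. Without KO 1+3, 286 rose, with DESeq2 280 and with the Y covariate 222. Divergent lncRNAs, whose start lies within 1000 bases of the start of a coding gene on the opposite strand, numbered 390, of which 184 rose and 24 fell (median 0.72). DESeq2 called 117 of them higher and the Y covariate left 95. Those with a single exon had the highest median: 33 of 55 rose and 2 fell (median 1.06), against 151 of 335 with several exons (median 0.67; 98 without KO 1+3). Antisense lncRNAs rose in 97 of 228 cases (median 0.58) and the others in 162 of 447 (median 0.50). DESeq2 called 58 antisense and 105 other lncRNAs higher and the Y covariate left 42 and 85, and without KO 1+3 the others numbered 92. Whether the counting used strand is not stated in the labels, so antisense RNAs may include reads of the overlapping gene.

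B930036N10Rik (chromosome 1, minus strand, 171500568 to 171504111), divergent to Alyref2, had WT values of 0.661, 0.657, 0.83 and 0.658 CPM and KO values of 5.08 and 4.2 CPM (log2 2.68 ± 0.23, adjusted p = 4.77e-07). Gm29170, divergent to Trove2, had WT values of 6.51, 5.17, 4.62 and 5.05 CPM and KO values of 14.7 and 14.5 CPM (log2 1.43 ± 0.15), and Gm28424, divergent to U2surp, had WT values of 0.313, 0.328, 0.316 and 0.22 CPM and KO values of 2 and 1.89 CPM (log2 2.63 ± 0.31). D930030I03Rik, divergent to Adprh, did not exceed 0.164 CPM in any WT sample and had KO values of 2.02 and 2.38 CPM (log2 4.87 ± 0.43). All 4 had KO samples above every WT sample. Among the other large rises, 2900052L18Rik had WT values of 1.5, 1.15, 1.07 and 1.1 CPM and KO values of 11.7 and 11.2 CPM (log2 3.20 ± 0.18, adjusted p = 1.3e-08). The antisense RNAs A430078I02Rik and Gm26670 rose from a mean of 0.343 to 3.05 CPM and from 0.223 to 2.65 CPM, 5830418P13Rik from 0.0746 to 2.21 CPM, and the lncRNAs Gm10505 from 0.146 to 2.5 CPM and Gm12107 from 0.263 to 2.18 CPM. Among lncRNAs over 2 CPM whose genotypes did not overlap, the largest falls were Gm17344 (log2 -1.92 ± 0.36), AI839979 (log2 -1.91 ± 0.30), Gm44751 (log2 -1.87 ± 0.22) and D630044L22Rik (log2 -1.77 ± 0.24).

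**Figure D4:**
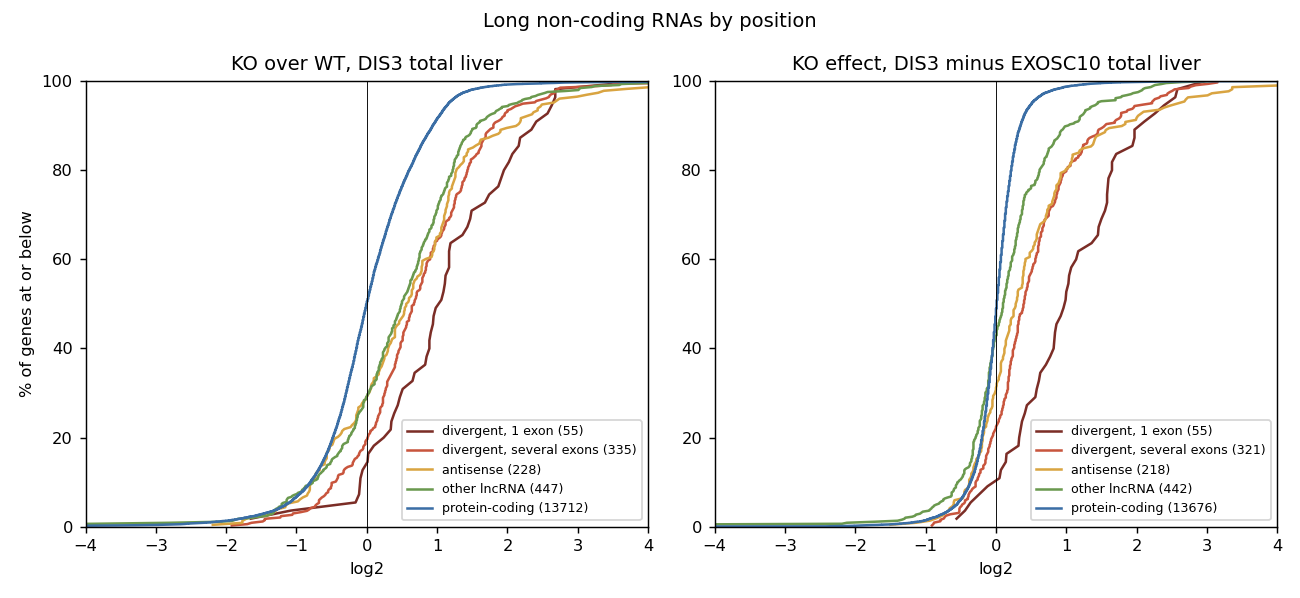
Cumulative share of tested genes (%) at or below a log2 value, for 4 kinds of lncRNA and for coding genes, with numbers in brackets. Left, KO over WT in total liver of the DIS3 line; right, the KO effect in the DIS3 line minus that in the EXOSC10 line. The curve of divergent lncRNAs with 1 exon lies farthest to the right over most of its length in both panels.

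Of 11 measured long RNAs known to stay in the nucleus, 6 rose and 2 fell. Malat1 had WT values of 2325, 2239, 2398 and 2675 CPM and KO values of 4791 and 3512 CPM (log2 0.79 ± 0.14, adjusted p = 0.000245), Kcnq1ot1 had WT values of 137, 128, 132 and 136 CPM and KO values of 345 and 236 CPM (log2 1.12 ± 0.12) and Meg3 had WT values of 369, 321, 369.8 and 443 CPM and KO values of 880.1 and 583 CPM (log2 0.96 ± 0.15). KO 1+3 was the higher KO sample in all of these, and WT and KO did not overlap. Of 22 imprinted genes, which are expressed from 1 parental copy and are high in fetal tissue, 20 rose and none fell (median log2 0.96). H19 had WT values of 2268, 2590, 2324 and 2212 CPM and KO values of 5508 and 5011 CPM (log2 1.16 ± 0.12, adjusted p = 2.11e-06), Mirg rose from 67 to 166 CPM, Peg3 from 299.8 to 746 CPM and the amino acid transporter gene Slc38a4 from 219 to 518 CPM.

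MicroRNA genes are read here through their precursors or host transcripts, since libraries of this kind do not capture mature microRNAs. The hairpins of Mir451a, Mir433 and Mir127 are shown because Mir451a is the precursor with the lowest adjusted p, and because Mir433 and Mir127 represent the imprinted cluster on chromosome 12, where most rises lay. Mature arms are in capitals in the hairpins, and seeds (bases 2 to 8) are in capitals in the mature sequences, from RefSeq on GRCm38.p6. All lie on the plus strand (chr11:78073170-78073241, chr12:109591715-109591838 and chr12:109592846-109592915).
microRNA 451a: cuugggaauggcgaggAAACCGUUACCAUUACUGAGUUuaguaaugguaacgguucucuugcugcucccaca
microRNA 433: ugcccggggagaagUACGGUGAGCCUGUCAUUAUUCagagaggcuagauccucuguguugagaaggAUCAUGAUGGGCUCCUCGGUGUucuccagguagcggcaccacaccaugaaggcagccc
microRNA 127: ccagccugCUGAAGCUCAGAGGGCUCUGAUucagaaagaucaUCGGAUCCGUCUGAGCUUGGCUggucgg
mmu-miR-451a: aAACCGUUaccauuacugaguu
mmu-miR-433-5p: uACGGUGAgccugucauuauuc
mmu-miR-433-3p: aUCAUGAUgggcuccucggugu
mmu-miR-127-5p: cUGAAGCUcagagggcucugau
mmu-miR-127-3p: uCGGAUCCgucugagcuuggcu
No seed is shared among these 5 mature sequences.

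Mir451a, which is cut by Argonaute 2 in place of Dicer, had WT values of 1.6, 1.31, 1.5 and 1.54 CPM and KO values of 7.1 and 10.2 CPM (log2 2.52 ± 0.20, adjusted p = 2.6e-07). Mir144, its neighbour in the same primary transcript, was not called, with WT values of 6.34, 5.91, 5.34 and 12.1 CPM and KO values of 4.83 and 6.85 CPM (log2 -0.21 ± 0.24, adjusted p = 0.494). The KO samples stood above every WT sample for Mir451a. For Mir144, KO 1+3 was below all WT samples and KO 2+4 among them. Of 60 measured precursors 26 rose and 9 fell, but 10 rose without KO 1+3, 11 with DESeq2 and 6 with the Y covariate. In the chromosome 12 cluster 22 of 30 rose and none fell (median log2 1.25), whereas among the other 30 precursors 4 rose and 9 fell (median -0.35). Mir433 had WT values of 0.696, 0.492, 1.03 and 1.32 CPM and KO values of 2.57 and 2.07 CPM (log2 1.49 ± 0.29), Mir127 rose from 0.749 to 1.75 CPM, Mir453 from 0.974 to 2.61 CPM and Mir122, the microRNA of hepatocytes, from 0.279 to 1.57 CPM.

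Classical small RNA substrates of the exosome changed less evenly. Of 112 measured snoRNAs, which guide modification of other RNAs, 18 rose (16.1%) and 3 fell (2.68%). Over all tested genes these shares were 26.5% and 24.2%, so snoRNAs were called higher less often than genes at large. Without WT 1 or with DESeq2 10 rose, and 8 with the Y covariate. Snord118, the U8 snoRNA of ribosomal RNA processing, had WT values of 0.696, 0.903, 1.11 and 0.658 CPM and KO values of 2.36 and 3.32 CPM (log2 1.69 ± 0.27, adjusted p = 0.000102). Of 37 spliceosomal snRNA genes 9 rose (24.3%) and 6 fell (16.2%), neither share above that of all tested genes. With the Y covariate the balance turned, with 3 higher and 8 lower, and without KO 1+3 it was 11 higher and 1 lower. The snRNA copies Gm23444 (WT values of 0.801, 0.657, 0.553 and 0.878 CPM and KO values of 3.77 and 4.47 CPM; log2 2.56 ± 0.24) and Gm22068 (from 0.574 to 2.61 CPM) rose. Both annotated loci lie on chromosome 11, and reads of near-identical snRNA copies may be split between them. Of 12 structured small RNAs 6 fell and 1 rose, and 2 fell without KO 1+3 or with the Y covariate. Rpph1, the RNA of ribonuclease P, had WT values of 6957, 6661, 7706 and 7760 CPM and KO values of 2890 and 4273 CPM (log2 -1.02 ± 0.16, adjusted p = 9.67e-05), and Rn7sk, which restrains transcription elongation, fell from 4305 to 3170 CPM, a call lost in 5 of the 14 other settings. Of 16 snoRNA host genes 9 rose and none fell (median log2 0.54), among them Snhg3, with WT values of 25.5, 22.6, 27.3 and 25.2 CPM and KO values of 41.5 and 40.9 CPM (log2 0.71 ± 0.10, adjusted p = 4.85e-05), and Snhg15 (from 7 to 14.8 CPM).

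Of 18 measured genes of the mitochondrial genome 15 rose and none fell (median log2 1.02). mt-Nd2 had WT values of 376, 383, 363 and 245 CPM and KO values of 819 and 774 CPM (log2 1.22 ± 0.15, adjusted p = 7.41e-06), with WT 4 the lowest, and mt-Cytb rose from 1083 to 2122 CPM (log2 0.97 ± 0.13). Of 78 cytoplasmic ribosomal protein genes 26 fell and 2 rose, but 6 fell without KO 1+3, 13 without WT 1, 42 without KO 2+4, 11 under total-count scaling and 7 with the Y covariate. Rps26 was the member with the lowest adjusted p (WT values of 210.4, 217, 211 and 194 CPM and KO values of 149 and 143 CPM; log2 -0.52 ± 0.10, adjusted p = 0.000386). Of 24 ribosome biogenesis factors 1 rose and 2 fell, against 3 and 1 under total-count scaling and 0 and 1 without KO 1+3, without WT 1 or with the Y covariate.

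The KO effect was then set against that in total liver of the EXOSC10 line, by a test of the difference itself. No covariate of Y-linked counts was fitted in this test. The 4 Y-linked genes had a median difference of log2 -10.28, and 0 of them were called. Sex may therefore enter the differences below, which was not tested. Here and below, higher and lower effects compare signed log2 values of KO over WT, not sizes of change. A gene that fell less has the higher effect, and a gene that fell more has the lower effect. Of 18158 genes tested, 185 differed in their KO effect (1.02%), 80 of them with a lower effect in the DIS3 line (0.441%) and the rest with a higher one (0.578%). The count was 109 without DIS3 WT 1, 90 without EXOSC10 KO 1 and 85 without the summed EXOSC10 WT 3+4. lncRNAs made up 35 of the higher and 3 of the lower effects among 1173 tested, and divergent lncRNAs 21 and 0 of 401. B930036N10Rik went from 3.24 to 3.4 CPM in the EXOSC10 line (difference of log2 2.58 ± 0.31, adjusted p = 0.000219), and Gm26670 from 0.657 to 0.63 CPM (difference of log2 3.31 ± 0.45, adjusted p = 0.000984). For B930036N10Rik the WT means of the lines lay apart (0.702 CPM in DIS3 WT), and the KO means were closer (4.64 CPM in DIS3 KO). A gap between WT means enters such a difference, and its cause was not tested. A430078I02Rik (difference of log2 3.36 ± 0.66, adjusted p = 0.0162), Gm29170 (difference of log2 1.36 ± 0.19, adjusted p = 0.00141), Gm28424 and 2900052L18Rik also differed.

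Small RNA genes differed too, in both directions. Of 75 microRNA precursors tested, 4 had a lower effect in the DIS3 line and 1, Mir451a, a higher one. For snoRNAs 1 of 129 was higher and 0 lower, and for spliceosomal snRNAs 2 of 49 were higher and 0 lower. Mir451a went from 1.19 to 0.621 CPM in the EXOSC10 line (difference of log2 3.39 ± 0.35, adjusted p = 3.68e-05), Gm23444 from 0.672 to 0.699 CPM (difference of log2 2.56 ± 0.39, adjusted p = 0.00275) and Snord118 from 1.38 to 1.18 CPM (difference of log2 1.86 ± 0.43, adjusted p = 0.0386). Snhg3 rose in DIS3 KO and went from 32.4 to 22.5 CPM in the EXOSC10 line (difference of log2 1.24 ± 0.13, adjusted p = 3.68e-05), and Snhg15 also differed. Among coding genes, Hbb-bh1 went from 3.37 to 2.12 CPM (difference of log2 2.56 ± 0.32, adjusted p = 0.000385), Phlda3 from 16.9 to 28.5 CPM (difference of log2 1.92 ± 0.32, adjusted p = 0.00553) and Bbc3 from 7.93 to 10.8 CPM (difference of log2 -0.94 ± 0.17, adjusted p = 0.00819). Gp1bb, of platelets, went from 15.6 to 23.9 CPM (difference of log2 -1.13 ± 0.21, adjusted p = 0.00979), and 4 of 14 megakaryocyte markers had a lower effect in the DIS3 line. The erythroid lists held 1 such difference, Hbb-bh1, and the S phase, mitosis and core histone lists none of 22, 23 and 56 tested. A difference that missed the threshold does not show that the effects were alike. For Cdkn1a it was log2 0.51 ± 0.15 (adjusted p = 0.12), with the EXOSC10 line from 6.67 to 111 CPM. WT means also lay apart between the lines for some of these genes. Phlda3 stood at 2.16 CPM in DIS3 WT and 16.9 CPM in EXOSC10 WT, and Bbc3 at 17 and 7.93 CPM. For Mir451a these means were closer (1.49 and 1.19 CPM).

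**Figure D5:**
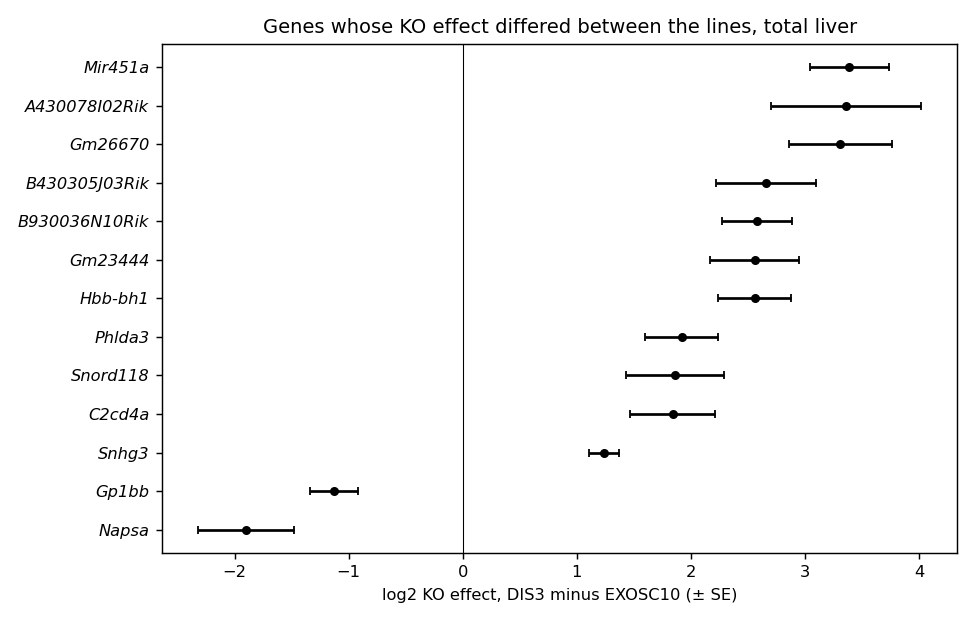
Difference in the log2 KO effect between the lines (DIS3 minus EXOSC10, total liver) for 13 named genes past the threshold; points are fitted differences and bars are ± 1 SE. Values above 0 mean a higher KO effect in the DIS3 line, from Gp1bb and Napsa below 0 to Mir451a at 3.39.

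Set against S3 cells of the same line, the KO effect of 2446 of 17786 tested genes differed (13.8%), 1031 higher in total liver (5.8%) and 1415 lower (7.96%). The count was 1239 without the summed DIS3 KO S3 1+3 and 1229 without DIS3 WT S3 2. Most measured genes of the erythroid transcription factor, surface, membrane and heme lists had a lower effect in total liver than in S3. These genes fell more in total liver than in S3, or fell in total liver alone. Alas2 went from 2620 to 2762 CPM in S3 (difference of log2 -0.98 ± 0.21, adjusted p = 0.00388), Epb42 from 1042 to 902 CPM (difference of log2 -0.83 ± 0.17, adjusted p = 0.00256) and Slc4a1 from 18332 to 16638 CPM. Of the membrane skeleton list 14 of 16 had a lower effect in total liver, of heme synthesis 11 of 16 and of core histones 26 of 56. Aqp1 was an exception, since it went from 196 to 8.5 CPM in S3 (difference of log2 2.21 ± 0.17, adjusted p = 1.42e-07).

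Among p53 targets in arrest and feedback, 9 of 17 had a lower effect in total liver than in S3 and none a higher one. Cdkn1a went from 3.18 to 308 CPM in S3 (difference of log2 -1.91 ± 0.22, adjusted p = 1.27e-05), Zmat3 from 2.83 to 76.9 CPM and Trp53 from 40.1 to 69.6 CPM (difference of log2 -0.90 ± 0.14, adjusted p = 0.000275). Embryonic Hbb-y, which rose in total liver, went from 3.27 to 3.18 CPM in S3 (difference of log2 2.84 ± 0.52, adjusted p = 0.00119), and Hba-x differed as well. Mir144 went from 4.73 to 54.2 CPM in S3 (difference of log2 -3.62 ± 0.34, adjusted p = 1.46e-06) and Mir451a from 1.95 to 55.9 CPM. Total liver had higher effects for 10 of 18 mitochondrial genes, 10 of 16 cholesterol genes and 9 of 22 imprinted genes. So it had for 8 of 20 macrophage markers, a list in which 15 fell and 3 rose in total liver. Among these 8 was Adgre1, which fell less in total liver (54.45 to 14.13 CPM) than in S3 (2.597 to 0.1645 CPM). Its S3 levels were low and near 0 in KO, so this difference is less precise. The hepatocyte gene Alb stood at means of 6.1 CPM (WT) and 5.16 CPM (KO) in the sorted cells, far below its level in total liver.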

How the data were processed

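Each library was deposited as raw read counts over 49585 Ensembl genes, without normalisation. The submitters' processing notes name GRCm38, HISAT2 2.1.0, Subread, featureCounts 1.6.4, DESeq2 1.20.0 and R 3.5.1. The annotation release and the strand setting of the counting are not given in the sources used here. Per the labels, libraries were stranded total RNA after ribosomal RNA depletion. Names and positions came from GENCODE M21, which held 49326 identifiers, and the other 259 had 0.0543% of counts.

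Libraries of a group with a chi-square per degree of freedom under 2, over genes with at least 20 counts in both together, were summed. KO was compared with WT by the quasi-likelihood test of edgeR 4.0.16 (R 4.3.3, limma 3.58.1) with TMM scaling, filterByExpr and Benjamini-Hochberg adjustment over all tested genes, called at 0.05. All adjusted p-values of genes come from this test. Differences between lines or populations were interaction terms, adjusted over all genes. CPM used TMM-scaled library sizes, and ± after a log2 value is its SE. DESeq2 1.42.0, other scalings and filters, a covariate of Y-linked counts, unsummed libraries and leaving out each sample were the alternatives. The fit was checked on simulated data. Depth was 4662194 to 30412636 counts per library, and counts of rare RNAs are the least precise in the shallowest.

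Of each list, up to 6 called members with the lowest adjusted p in the prevailing direction and 1 in the other could be named, beside the largest and the most significant changes among non-overlapping coding genes over 5 CPM and lncRNAs over 2 CPM. Afp, Alb, Bbc3, Btg2, Camp, Cdk1, Mdm2, Mir144, Ngp, Pecam1, S100a8, S100a9, Sesn1, Slc4a1, Trp53 and AI506816 were chosen after their values were seen. Some genes that the rule allows are not reported here. The members and lists were chosen with earlier results of these data known, so no list is independent support. List counts are read against the shares over all genes. Replicate numbers did not pair the samples, so no block was used.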

Additional observations from a re-analysis of the deposited data

Results flagged for a closer look

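In 9 of the 205 genes named, 1 WT sample lay apart from the other 3. The measure was the gap to its nearest neighbour over the range of the group, which chance passes in about 1 of 20 groups. The share flagged is near that rate, so no flag is by itself a sign of a faulty sample. WT 3 was apart for Cish (12.49 CPM, low), Sc5d (140.3 CPM, high), B930036N10Rik (0.8301 CPM, high) and Slc4a1 (8173 CPM, low). WT 1 was apart for Cd79b (7.555 CPM, high). WT 4, the shallowest library, was apart for mt-Nd2 (245.1 CPM, low), Mir144 (12.07 CPM, high), Gm28424 (0.2195 CPM, low) and AI506816 (0.6584 CPM). AI506816, chosen after its values were seen, had WT values of 68.4, 63.2, 59.4 and 0.658 CPM and KO values of 1.26 and 0.988 CPM, so 1 WT sample lay with the KO samples. In the EXOSC10 line it stood at a mean of 146 CPM in WT and 139 CPM in KO.

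The KO effect of some genes differed between total liver of the DIS3 and EXOSC10 lines, by the interaction test, as log2 values of DIS3 minus EXOSC10. The effect was higher in the DIS3 line for Phlda3 (1.92), Ercc5 (0.59), C2cd4a (1.84), B430305J03Rik (2.66), Hbb-bh1 (2.56), Otc (0.64), Podxl (0.92) and Pdk1 (0.50). So it was for A430078I02Rik (3.36), Gm26670 (3.31), 2900052L18Rik (1.43), B930036N10Rik (2.58), Gm29170 (1.36), Gm28424 (1.71), Snhg15 (0.82), Snhg3 (1.24), Snord118 (1.86), Mir451a (3.39), Gm23444 (2.56) and Gm22068 (1.84). It was lower for Bbc3 (-0.94), Napsa (-1.90), Adgre1 (-0.94), Gp1bb (-1.13), Cd79b (-1.65), Fanca (-0.50), AI506816 (-5.45) and Gm16867 (-16.72). The value for Gm16867 is not a size of effect, since it had no count in DIS3 KO or in EXOSC10 WT and stood at a mean of 0.491 CPM in EXOSC10 KO.

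The same test between total liver and S3 cells of the DIS3 line, as total minus S3, flagged more genes. Of the p53 genes, the effect was lower in total liver for Cdkn1a (-1.91), Zmat3 (-1.84), Trp53inp1 (-0.77), Plk2 (-2.95), Ppm1d (-0.71), Btg2 (-1.02), Mdm2 (-0.50), Tnfrsf10b (-3.72), Fas (-5.94), Bbc3 (-1.03), Phlda3 (-1.1), Sertad3 (-1.09), Trp53 (-0.90) and Trp53cor1 (-6.11), and higher for Fdxr (0.78). Fas and Trp53cor1 had no count in S3 WT, so their values depend on the prior count. The effect is also less precise for Tnfrsf10b and Plk2, which stood at 0.0733 and 0.286 CPM in S3 WT. Of the red cell genes it was lower for Zbtb7a (-0.57), Lmo2 (-0.68), E2f2 (-0.98), Gfi1b (-0.73), Itga4 (-0.56), Slc4a1 (-0.84), Epb42 (-0.83), Uros (-0.95), Alas2 (-0.98), Glrx5 (-0.94), Trim58 (-1.22), Fbxo7 (-0.84) and Bcl2l1 (-1.1), and higher for Aqp1 (2.21), Hba-x (2.99) and Hbb-y (2.84).

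Among genes of liver cells the effect was higher in total liver for Alb (1.43), Afp (1.88), Ambp (2.14), Sc5d (1.39), Dhcr7 (1.19) and Cxcl12 (2.63), and lower for Il6ra (-1.72), Clec4g (-3.72) and Reln (-1.72). Among genes of other blood cells it was higher for Adgre1 (2.19), Cd5l (3.14) and Mertk (3.14), and lower for Ccr2 (-3.13), Ltf (-1.61) and Hdc (-1.88). For division, histones and stress it was lower for Cdc6 (-0.56), Cdc25b (-1.06), Ccnd2 (-0.71), Cdkn2c (-0.55), Ccnd3 (-0.59), Fanca (-0.50), H2afx (-0.77), Hist1h3i (-0.80), Hist1h1c (-1.31), Ppp1r15a (-1.05) and Dnajb1 (-0.67), and higher for Hspa5 (0.51). Outside the lists it was lower for Tmtc1 (-1.64), Rundc3a (-1.20) and B430305J03Rik (-3.31), and higher for C2cd4a (1.02). The effect is less precise where S3 WT was near 0. This holds for Clec4g (0.0221 CPM), B430305J03Rik (0.0733 CPM), Ambp (0.264 CPM), Cxcl12 (0.396 CPM) and Mertk (0.498 CPM). Adgre1 and Cd5l were near 0 in S3 KO (0.1645 and 0.1051 CPM), so their values are less precise as well.

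Among non-coding, imprinted, mitochondrial and ribosomal protein genes the effect was higher in total liver for Snhg3 (0.81), Kcnq1ot1 (0.69), H19 (1.05), Peg3 (1.65), Slc38a4 (4.71), mt-Nd2 (2.27) and mt-Cytb (1.31). It was lower for Gm12107 (-2.49), 2900052L18Rik (-2.85), Mir451a (-2.27), Mir144 (-3.62), Gm23444 (-2.98), Rps26 (-0.47) and AI506816 (-7.41).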

How the results depend on the processing

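Across 14 other settings no gene called in total liver was called in the opposite direction. With Y-linked counts as a covariate 2600 genes were higher and 2601 lower, against 4659 and 4240; the cause was not tested, though 3 of 4 WT samples and neither KO sample carry such counts. Leaving out each sample in turn gave 3316 to 4571 higher and 3359 to 4300 lower, with both lowest counts without KO 1+3. Of 201 named genes that were called, 193 kept their call in every such fit. Most named genes were picked for a low adjusted p or a large change, so that count does not stand for all genes. Mir144, not called, changed sign without KO 1+3 (log2 0.03), the cause of which was not tested. It also did with the Y covariate (0.12), where KO is set against WT 3, the WT sample with the lowest Mir144 (5.337 CPM). Of 104 list counts, none moved by over 1.5 times with RLE scaling, 48 did with the Y covariate and 27 without KO 1+3.

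The count of genes that differ between the lines, 185, was 307 with DESeq2, 438 under total-count scaling, 672 with no low-count filter, 992 with every library as its own sample and 340 with EXOSC10 WT libraries 3 and 4 kept apart, a setting chosen after seeing the data. Leaving out samples gave 85 to 248, and 90 to 232 where the sample was 1 library. The count that differs between total liver and S3, 2446, was 3976 with every library as its own sample, and 1229 to 3180 on leaving out samples (1229 to 2438 where the sample was 1 library, and 1239 without DIS3 KO S3 1+3). Keeping summed libraries apart counts them as replicates; the cause of the other moves was not tested.

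The replicate number as a block, with every library as its own sample, gave 5214 genes higher and 4911 lower. Same-numbered WT and KO samples had correlations of -0.056, 0.087, 0.101 and -0.020, so the numbers do not pair them. WT 4 was the shallowest, with 4662194 counts, and without it 4571 genes were higher and 4300 lower.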
